A study of Mus musculus with 6 samples.

Results

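MMERVK10C and the RLTR10 LTRs were examined in RNA-seq of P20 mouse testis. The members were taken by name from the deposited table of repeat entries. Earlier results of these data were known when the members were chosen, though the rule itself used names only. It took the row MMERVK10C and every row named RLTR10 or RLTR10 followed by a letter. This gave 8 of the 363 entries, the internal entry MMERVK10C and 7 LTR entries (RLTR10, RLTR10A, RLTR10B2, RLTR10D, RLTR10D2, RLTR10E and RLTR10F), and all 8 passed the filter on low counts that left 292 entries for testing. Testes of 3 wild-type mice were compared with those of 3 homozygous Spocd1ΔSPIN1 mice (genotype Spocd1 dSpin/dSpin in the labels), all on a mixed B6CBAF1/Crl and C57BL/6N background, with 1 testis per library. The Spocd1ΔSPIN1 allele, which came from 1 founder, carries alanine substitutions made to stop SPOCD1 from binding the chromatin reader SPIN1, and the comparison asks which transposon transcripts differ when this contact is lost.

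MMERVK10C belongs to the ERVK group of mouse endogenous retroviruses, which are remnants of retroviruses that once entered the germline. A complete copy has an internal part, which derives from gag, pol and other retroviral genes, between a pair of long terminal repeats (LTRs) that carry the promoter and the signal that ends the transcript. RLTR10 is a group of rodent LTRs of this kind, and many copies have lost their internal part by recombination and survive as solitary LTRs. In mouse cells, MMERVK10C is known as an element held silent by the KRAB zinc-finger cofactor TRIM28 and by the H3K9 methyltransferase SETDB1, and in fetal male germ cells the piRNA pathway directs DNA methylation to transposon promoters. Which LTR flanked the transcribed copies of MMERVK10C cannot be told from counts per entry, since an entry stands for many copies and has no position in the genome.

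Total counts were between 369598 and 499166 per wild-type library and between 842018 and 1013224 per Spocd1ΔSPIN1 library. Levels are given as CPM, counts relative to a library size that edgeR adjusts by its TMM method, on the assumption that most entries do not change. Scaling by total counts instead moved the median log2 fold change over all 292 entries from −0.039 to −1.05, and the 8 entries moved by between −1.02 and −0.99, so directions are given relative to TMM and the exceptions are named. Spocd1ΔSPIN1 replicate 1 stood apart from its group, with a chi-square per degree of freedom of 413 and 352 against replicates 2 and 3, where every other pair within a genotype had between 10.3 and 14.5. No gene was counted in the table, so neither the genotype nor the cell types of the testis were checked, and in whole testis fewer cells of a type and less RNA per cell cannot be told apart.

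Of the 8 entries, MMERVK10C and RLTR10B2 were higher in Spocd1ΔSPIN1 testes, by 6.37-fold and 3.89-fold, and RLTR10D2 was lower. The other 5 LTR entries, the most abundant of which is RLTR10, did not pass the threshold, a Bonferroni-adjusted p of 0.05 over all 292 entries in edgeR's quasi-likelihood test. Among all entries tested, 8.22% passed, with 5.48% higher and 2.74% lower, against 2 higher and 1 lower of these 8. The median log2 fold change was −0.011 over the 8 entries and −0.039 over all entries tested.

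The internal entry MMERVK10C had 9612, 9574 and 8938 CPM in wild-type replicates 1, 2 and 3, and 82988, 44775 and 51483 CPM in Spocd1ΔSPIN1 replicates 1, 2 and 3. The wild-type mice lay within 1.08-fold of each other, and the lowest Spocd1ΔSPIN1 mouse was far above all of them. The mean rose from 9375 ± 379 CPM in wild type to 59749 ± 20403 CPM in Spocd1ΔSPIN1 mice (mean ± SD, 3 mice per genotype). This is a log2 fold change of 2.67 ± 0.23 (± standard error here and below for log2 fold changes, edgeR, Bonferroni-adjusted p = 0.00119), the sixth largest rise in rank among all entries tested. Counts behind these values were between 4840 and 51719, so counting error was at most 1.44%. Ordered by the mean share of counts, MMERVK10C went from place 36 among the 363 entries in wild type to place 5 in Spocd1ΔSPIN1 testes. It took 1.38%, 1.31% and 1.30% of all counts in wild-type replicates 1, 2 and 3, and 6.14%, 3.16% and 3.43% in the Spocd1ΔSPIN1 replicates. The means were 1.33% ± 0.042 and 4.24% ± 1.65 (SD), with p = 0.1 in an exact permutation test (two-sided throughout), or 0.113 after Benjamini-Hochberg adjustment over the 9 shares computed. A p of 0.1 is the smallest that 3 mice against 3 can give. When only counts outside LINE1 entries were taken as the whole, the share was 2.42% ± 0.13 in wild type and 12.3% ± 2.89 in Spocd1ΔSPIN1 mice.

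Of the LTR entries, only RLTR10B2 passed as higher, as the internal entry did. RLTR10B2 kept a closer ratio of counts to IAPEY5_I, an entry outside the members described below, than to MMERVK10C. It had 1002, 1054 and 989 CPM in wild-type replicates 1, 2 and 3, and 6028, 2790 and 3027 CPM in Spocd1ΔSPIN1 replicates 1, 2 and 3. The groups did not overlap, and again replicate 1 was the highest of the Spocd1ΔSPIN1 mice. The mean rose from 1015 ± 34.4 to 3948 ± 1805 CPM (SD), and the log2 fold change was 1.96 ± 0.28 (edgeR, Bonferroni-adjusted p = 0.0411). This call was close to the threshold. With each library left out in turn, it passed in 2 of 6 fits, those without Spocd1ΔSPIN1 replicate 1 (log2 fold change 1.51, adjusted p = 2.23e-05 in edgeR) and replicate 2, and not in those without Spocd1ΔSPIN1 replicate 3 or any one of the wild-type replicates, where adjusted p-values reached 0.343. MMERVK10C passed in all 6 of these fits, with log2 fold changes between 2.35 and 2.85, and the largest adjusted p in edgeR was 0.021.

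RLTR10D2 went the other way. It had 144, 229 and 174 CPM in wild-type replicates 1, 2 and 3, and 61.0, 76.9 and 65.4 CPM in Spocd1ΔSPIN1 replicates 1, 2 and 3, so that every Spocd1ΔSPIN1 mouse lay below every wild-type mouse. The mean fell from 183 ± 43.4 to 67.8 ± 8.23 CPM (SD), with a log2 fold change of −1.41 ± 0.20 (edgeR, Bonferroni-adjusted p = 0.0356). The counts were low, between 38 and 127 per library, and the counting error at the lowest was 16.2%. RLTR10D2 passed in 2 of the 6 fits that left out 1 library, those without wild-type replicate 1 or 2. Without wild-type replicate 3 and without Spocd1ΔSPIN1 replicates 1, 2 and 3, the adjusted p in edgeR was 0.137, 0.166, 0.0969 and 0.227, with the log2 fold change between −1.52 and −1.35.

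RLTR10, the entry that gives the group its name, was nearly equal in the genotypes. It had 1089, 1112 and 998 CPM in the wild-type replicates and 1094, 1082 and 1080 CPM in the Spocd1ΔSPIN1 replicates, with the latter inside the wild-type range. The log2 fold change was 0.027 ± 0.068 (edgeR, Bonferroni-adjusted p = 1). In wild type RLTR10 and RLTR10B2 had about the same level, so RLTR10B2 was 0.920, 0.948 and 0.992 times RLTR10 by count in replicates 1, 2 and 3. In Spocd1ΔSPIN1 replicates 1, 2 and 3, it was 5.51, 2.58 and 2.80 times RLTR10.

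RLTR10A had between 96 and 104 counts in every library, and with a log2 fold change of −0.050 ± 0.16 its groups overlapped. RLTR10D had 83.6, 121 and 83.7 CPM in wild type and 72.2, 86.7 and 58.8 CPM in Spocd1ΔSPIN1 mice, groups that overlapped, with a log2 fold change of −0.37 ± 0.21. The log2 fold change of RLTR10E, with 27 to 45 counts per library, was 0.33 ± 0.20, with overlapping groups as well. Bonferroni-adjusted p-values in edgeR were 1 for RLTR10A, RLTR10D and RLTR10E. RLTR10F had 216, 297 and 272 CPM in wild type and 191, 173 and 154 CPM in Spocd1ΔSPIN1 mice, with no overlap. Its log2 fold change was −0.59 ± 0.14 (edgeR, Bonferroni-adjusted p = 0.943), and it passed with Benjamini-Hochberg adjustment (adjusted p = 0.0147 in edgeR), under which 31.5% of all entries tested and 4 of the 8 passed. Groups that did not overlap were common in the table. In 20.9% of all entries tested the Spocd1ΔSPIN1 mice lay wholly above the wild-type mice, as in 2 of the 8 here, and in 25.0% wholly below, as in a further 2 of the 8. At these counts, counting error in the lowest library was 10.2% for RLTR10A, 16.7% for RLTR10D, 19.2% for RLTR10E and 10.3% for RLTR10F, and it covers counting only.

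**Figure D1:**
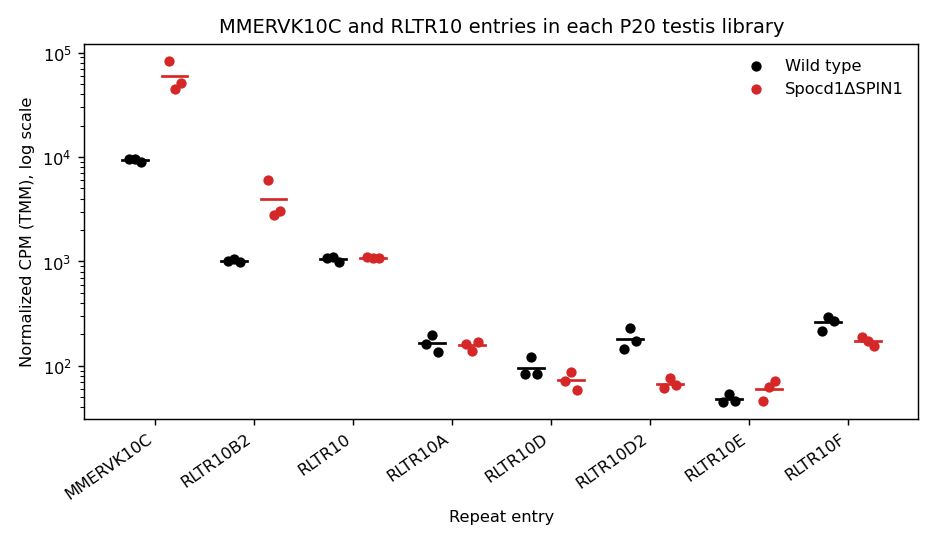
Normalized CPM (TMM, log axis) of MMERVK10C and the 7 RLTR10 entries, with 1 point per library (wild type in black, Spocd1ΔSPIN1 in red, replicates 1 to 3 from left to right) and a line at the mean of each group of 3. MMERVK10C and RLTR10B2 lie wholly higher in Spocd1ΔSPIN1 libraries, RLTR10D2 and RLTR10F wholly lower, and the other 4 overlap.

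Directions depended on the scaling for entries near 0. With total counts, MMERVK10C still passed as higher (log2 fold change 1.67, Bonferroni-adjusted p = 0.0299 in edgeR), and was among the 1.37% of entries called higher. The log2 fold change of RLTR10B2 was 0.96, which did not pass (adjusted p = 1 in edgeR). RLTR10, RLTR10A, RLTR10D, RLTR10D2 and RLTR10F then passed as lower, as did 57.5% of all entries tested. RLTR10E turned from 0.33 to −0.69 and RLTR10 from 0.027 to −0.98. With DESeq2's Wald test, the tool and test that the study used for RNA-seq, 16.1% of all entries passed after Bonferroni adjustment, and of the 8 the same 3 passed as in edgeR, MMERVK10C and RLTR10B2 as higher and RLTR10D2 as lower.

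**Figure D2:**
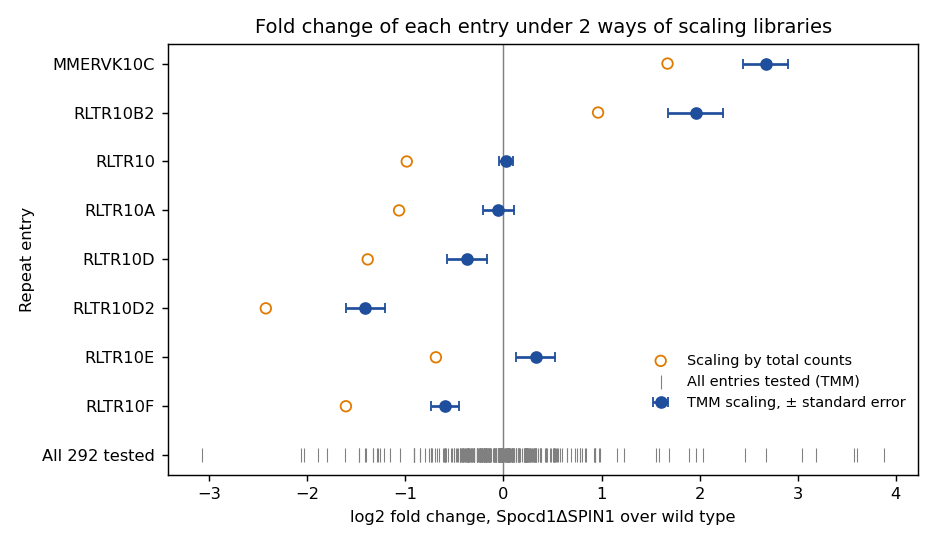
The log2 fold change (Spocd1ΔSPIN1 over wild type) of each entry, with TMM scaling (filled points, bars show the standard error from edgeR) and with scaling by total counts (open points), above the TMM values of all 292 entries tested (grey ticks). All 8 entries shift left by about the same amount with total counts, and MMERVK10C and RLTR10B2 stay to the right of 0.

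To compare the internal entry with the LTR entries without any scaling between libraries, their counts were divided within each library. The deposited counts held no entry named RLTR10B or RLTR10C. The ratios therefore cover only the 7 LTR entries counted, and whether these include the LTR that flanks MMERVK10C is not known. The count of MMERVK10C was 3.51, 3.12 and 3.31 times the summed count of the 7 LTR entries in wild-type replicates 1, 2 and 3, and 10.8, 10.1 and 11.1 times in Spocd1ΔSPIN1 replicates 1, 2 and 3. On the log2 scale this ratio was 1.73 ± 0.084 in wild type and 3.42 ± 0.068 in Spocd1ΔSPIN1 mice (SD). The difference of 1.69 had p = 0.1 in the exact permutation test, or 0.111 after Benjamini-Hochberg adjustment over the 21 ratios computed. It was many times the spread between mice, and higher in 3 of 3 Spocd1ΔSPIN1 mice. RLTR10B2 made up 35.9% ± 1.29 of the sum in wild type, where RLTR10 made up 37.7% ± 1.84, and 69.1% ± 8.39 in Spocd1ΔSPIN1 mice, where RLTR10 made up 20.7% ± 5.60 (SD). Without RLTR10B2 in the sum, the difference of the log2 ratio was 2.79. The share of the LTR sum itself in all counts was 0.402% ± 0.015 for wild type and 0.395% ± 0.15 for Spocd1ΔSPIN1 mice (SD, p = 1 by exact permutation), and as a share of the counts outside LINE1 it took 0.730% ± 0.011 and 1.15% ± 0.25 (p = 0.1 in the same exact test).

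MMERVK10C gained on each of the 7 LTR entries taken singly, in 3 of 3 Spocd1ΔSPIN1 mice each time, with differences of the log2 ratio between 0.75 for RLTR10B2 and 4.03 for RLTR10D2. Its count was 9.59, 9.08 and 9.03 times that of RLTR10B2 in wild type and 13.8, 16.1 and 17.0 times in Spocd1ΔSPIN1 mice, so the LTR entry that rose did so by less than the internal entry, beyond the spread between mice (log2 ratio 3.21 ± 0.048 and 3.96 ± 0.16, SD, p = 0.1 by exact permutation). Against RLTR10, the count ratio was 8.83, 8.61 and 8.96 in wild type and 75.8, 41.4 and 47.7 in Spocd1ΔSPIN1 mice. RLTR10D2 also fell behind its nearest namesake, with 1.72, 1.90 and 2.08 times the count of RLTR10D in wild type and 0.844, 0.887 and 1.11 times in Spocd1ΔSPIN1 mice (difference of the log2 ratio −1.01, p = 0.1 in the exact test).

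**Figure D3:**
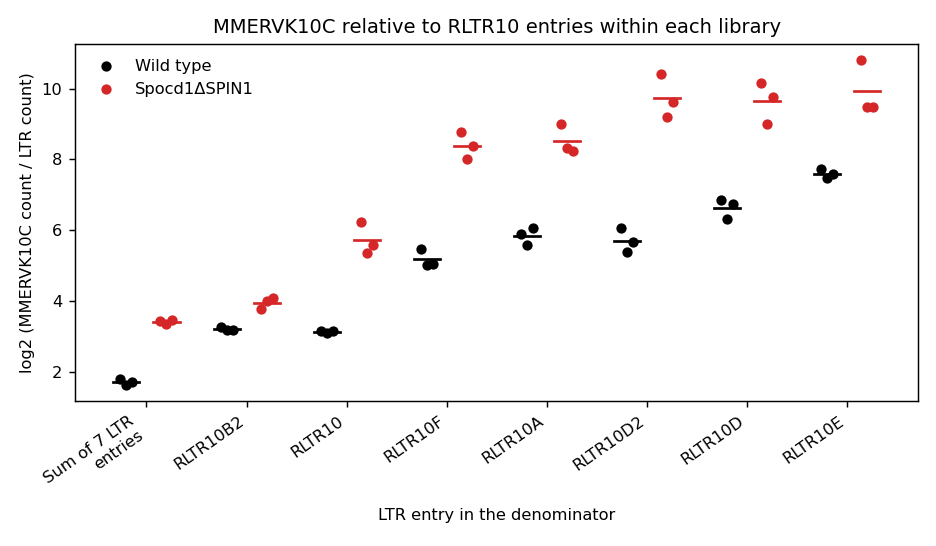
The log2 ratio of the count of MMERVK10C to the count of the summed RLTR10 entries and of each entry, within each library (wild type in black, Spocd1ΔSPIN1 in red), with a line at the mean of 3. The groups do not overlap for any denominator, and the difference of the means is smallest for RLTR10B2.

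Levels of different entries were compared as CPM per kilobase of entry length, since MMERVK10C is 7581 bases long and the LTR entries are 312 to 411. In wild type the order was RLTR10 (2734 ± 155 CPM per kb), RLTR10B2 (2672 ± 90.6), MMERVK10C (1237 ± 50.0), RLTR10F (838 ± 133), RLTR10D2 (511 ± 122), RLTR10A (401 ± 80.0), RLTR10D (267 ± 59.5) and RLTR10E (154 ± 14.0). The ranges of RLTR10 and RLTR10B2 overlapped, and RLTR10 was above RLTR10B2 in 2 of the 3 libraries. Those of RLTR10D2 and RLTR10A and those of RLTR10A and RLTR10D overlapped as well, but within each of the 3 libraries RLTR10D2 was above RLTR10A and RLTR10A above RLTR10D. In Spocd1ΔSPIN1 mice RLTR10B2 (10390 ± 4751 CPM per kb) and MMERVK10C (7881 ± 2691) came first and overlapped in range, RLTR10 (2784 ± 19.5) came next, and RLTR10D2 (190 ± 23.1) had the lowest mean, within the range of RLTR10E. Within each library RLTR10B2 had more reads per kilobase than MMERVK10C, by 2.08, 2.20 and 2.21 times in wild type and by 1.45, 1.24 and 1.17 times in Spocd1ΔSPIN1 mice. RLTR10 was 2.21 ± 0.044 times MMERVK10C per kilobase in wild type and 0.378 ± 0.11 times in Spocd1ΔSPIN1 mice.

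The size of the rise varied between Spocd1ΔSPIN1 mice in the same order for both entries that rose. MMERVK10C was 8.85-fold, 4.78-fold and 5.49-fold above the wild-type mean in replicates 1, 2 and 3, and RLTR10B2 was 5.94-fold, 2.75-fold and 2.98-fold above it. The summed CPM of the LINE1 entries was 2.59-fold, 3.07-fold and 3.31-fold above its wild-type mean in the same mice, lowest in replicate 1 where MMERVK10C was highest. Single LINE1 entries differed in this, since of the 10 that passed as higher, L1MdTf_I, L1MdTf_II, L1MdTf_III and L1Md_Gf_5end were highest in replicate 1, as MMERVK10C was, and the other 6 were lowest there. L1MdTf_I was 14.3-fold, 9.74-fold and 11.6-fold above its wild-type mean in replicates 1, 2 and 3, and L1MdA_I, which did not pass (Bonferroni-adjusted p = 0.0693 in edgeR), was 2.93-fold above it in replicate 1 and 12.3-fold in replicate 3. These LINE1 entries were named after their values had been seen. Without Spocd1ΔSPIN1 replicate 1 the log2 fold change of MMERVK10C was 2.35, and what set that mouse apart was not tested.

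Outside these entries, those whose counts kept the closest ratio to MMERVK10C over the 6 libraries were IAPEY5_I (SD of the log2 ratio 0.38), L1MdTf_I (0.53) and L1MdTf_II (0.55), while RLTR10B2 had 0.43. IAPEY5_I is an internal entry of the IAPEY retroviruses, which are also ERVKs, and the L1MdTf entries are young LINE1 retrotransposons. RLTR10B2 kept a much closer ratio to IAPEY5_I (SD 0.078, counts of IAPEY5_I between 0.956 and 1.11 times those of RLTR10B2) than to MMERVK10C, and next to IAPEYI (0.26) and L1MdTf_III (0.27). In Spocd1ΔSPIN1 replicates 1, 2 and 3 IAPEY5_I was 6.24-fold, 2.97-fold and 3.12-fold above the wild-type mean, nearly as RLTR10B2 was. How reads that match several entries were counted is not given in the sources used here, and shared reads and joint rises cannot be told apart. For RLTR10D2 the closest were IAPLTR3_I (0.16), RLTR30_MM (0.17) and RLTR20D_MM (0.20), whose log2 fold changes were −1.33, −1.40 and −1.33 (Bonferroni-adjusted p = 0.128, 0.0616 and 0.131 in edgeR).

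**Figure D4:**
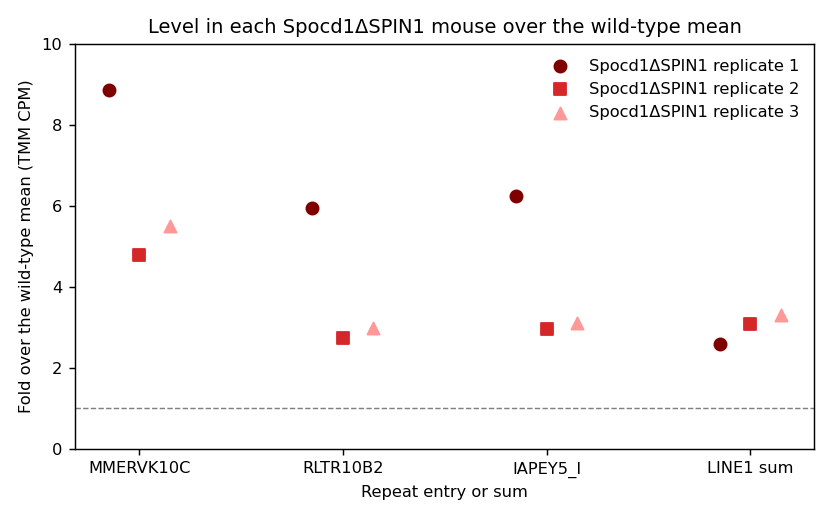
Fold over the wild-type mean (TMM-scaled CPM, linear axis from 0, dashed line at 1) in each of the 3 Spocd1ΔSPIN1 mice for MMERVK10C, RLTR10B2, IAPEY5_I and the summed LINE1 entries. Replicate 1 is the highest for the first 3, at 8.85-fold, 5.94-fold and 6.24-fold, and the lowest for the LINE1 sum, at 2.59-fold, in which single entries differ.

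The entries that share the MMERVK10 name but were not taken by the naming rule were MMERVK10D3_I and, by its name, its LTR, MMERVK10D3_LTR. Whether this LTR is close in sequence to the RLTR10 entries was not tested. These, and IAP5-Mm_I, SRV_MM-int and MERV1_I, were named after their values had been seen. MMERVK10D3_I had 351, 277 and 325 CPM in wild type and 294, 231 and 288 CPM in Spocd1ΔSPIN1 mice, with a log2 fold change of −0.24 ± 0.13. MMERVK10D3_LTR had a log2 fold change of −0.18 ± 0.24, and both had an adjusted p of 1 in edgeR. The count of MMERVK10D3_I was 6.18, 4.83 and 8.78 times that of its LTR in wild type and 5.55, 6.35 and 6.77 times in Spocd1ΔSPIN1 mice, ranges that overlapped (p = 1 in the exact permutation test). Other internal retroviral entries outside LINE1 were listed by name. The names ended in _I, -I or -int, before any final _MM or _Mm, or were IAPEYI or IAPEZI. This list left out RLTR4I_MM and RLTR6I_MM, which were counted with the RLTR names below, and long entries such as MERVL and MMVL30. Of the 30 entries in it that were tested, 4 passed as higher (IAPEY5_I, IAPEYI, IAP5-Mm_I and SRV_MM-int). Only 1 passed as lower (MERV1_I), and the median log2 fold change was 0.22. Of the 105 other entries named RLTR that were tested, 0 passed as higher and 5 as lower, with a median of −0.20, and 4 were higher and 29 lower with Benjamini-Hochberg adjustment. Of the 32 entries with IAP in their name, 3 passed as higher and 1 as lower (median 0.31). These lists overlap. The 3 were IAPEY5_I, IAPEYI and IAP5-Mm_I, already counted among the internal entries, and RLTR1IAP_MM, for example, was in both the IAP and RLTR lists. Of the 46 LINE1 entries tested, 10 passed as higher and 0 as lower (median 0.19), where 19 were higher and 1 lower with Benjamini-Hochberg adjustment in edgeR. Among all 292 entries tested, 16 passed as higher and 8 as lower, and 45 were higher and 47 lower with Benjamini-Hochberg adjustment in edgeR. Under scaling by total counts the medians of these 4 lists were −0.79, −1.21, −0.70 and −0.83.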

How the data were processed

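RNA was extracted from 1 testis per mouse, depleted of ribosomal RNA and made into stranded libraries. The authors deposited raw read counts per repeat entry with entry lengths. The submitters' processing notes name cutadapt 1.18, Bowtie2 2.4.2 and mm10. The reference sequences of the entries, the rule for reads matching several entries and the strand setting are not given in the sources used here. A row named for Bowtie2, with 0 in every library, was left out.

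Counts were tested with the quasi-likelihood test of edgeR 4.0.16 (R 4.3.3, two-sided, TMM, filterByExpr, no covariate). Bonferroni adjustment, the kind that the study used, was made over all 292 entries that passed the filter here. DESeq2 1.42.0 was an alternative. Standard errors were derived from the F statistic. Exact permutation tests used scipy 1.17.1. Likeness was the SD of the log2 ratio of counts plus 0.5, and the 3 closest entries were named. The members, lists and tests were chosen with earlier results of these data known. Nothing states whether mice shared litters, and p-values from edgeR and DESeq2 set the genotype difference against the spread between these libraries. On simulated counts for all 363 entries, edgeR called 37 and DESeq2 34 of 40 changed entries, with 0 false calls among 259 unchanged ones for each. The simulation gave every entry the same spread, balanced rises against falls and had no library that stood apart. It checks that the code runs as meant and cannot give the rate of false calls in these data. Alternatives were DESeq2's size factors, total counts, TMM factors without members and LINE1, Benjamini-Hochberg adjustment, no filter, a minimum of 10 counts per library, a replicate block, and leaving out single libraries.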

Additional observations from a re-analysis of the deposited data

How the results depend on the processing

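MMERVK10C kept its direction and passed under all 14 alternatives, and over the 8 entries 112 values under alternatives were compared. In 92 neither direction nor call differed, in 10 a call was lost, in 5 one was gained and in 6 the sign changed (1 of these, RLTR10 with total counts, also gained a call). The number of the 8 entries passing, 3, became 6 with total counts, which lower every entry by about as much, and was between 1 and 2 with 1 library left out (1 without wild-type replicate 3 or Spocd1ΔSPIN1 replicate 3). Changed directions were those of RLTR10 (−0.98) and RLTR10E (−0.69) with total counts, RLTR10A (0.022) with TMM factors without members and LINE1, and, with 1 library left out, RLTR10 (−0.016 to 0.058) and RLTR10A (−0.18 to 0.10). The RLTR10 share of counts, 0.0067 percentage points lower in Spocd1ΔSPIN1 mice, was 0.42 points higher of the counts outside LINE1, and between −0.092 and 0.037 with 1 library left out. The cause was not tested. Of all entries, 24 passed, against 172 with total counts, 92 with Benjamini-Hochberg adjustment, 47 with DESeq2, and 14 to 28 with 1 library left out.

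The genotypes share replicate numbers in the labels, but same-numbered libraries did not deviate together (correlations of 0.083, 0.0080 and −0.14). With the replicate number as a block, 14 entries passed, 2 of them among the 8, where the log2 fold change was 2.62 for MMERVK10C and 1.87 for RLTR10B2, which no longer passed (adjusted p = 0.141 in edgeR). Depth limits RLTR10E, RLTR10D and RLTR10D2 most, with as few as 27, 36 and 38 counts.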
